A study of Mus musculus with 24 samples.

Results

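The 6 genes described are *Asns*, *Aldh18a1*, *Pycr1*, *Cbs*, *Cth* and *Chac1*, which encode enzymes that make asparagine, proline and cysteine and an enzyme that cleaves glutathione. They were chosen by symbol out of the 55487 genes in the deposited table, and all 6 were among the 15401 genes with enough counts to be tested. Polyadenylated RNA was sequenced from wild-type (WT) mouse embryonic fibroblasts (MEFs) and from *tfeb tfe3* double-knockout (DKO) MEFs, which were made to lack the transcription factors TFEB and TFE3. Each genotype received vehicle (DMSO, 0.1%), torin1 (100 nM), which inhibits the kinase MTOR, or MK-8722 (10 µM), which activates the kinase AMPK, and each of the 6 groups holds 4 libraries. The question was which transcripts the drugs change, and which of these changes need TFEB and TFE3. Both lines came from another laboratory, and the length of treatment before sequencing is not given in the sources used here. The 4 libraries of a group are cultures of different passages, so p-values measure the spread between cultures of 1 WT line and 1 DKO line. The passages were 7, 8, 9 and 11 in WT and 8, 9, 10 and 11 in DKO. Passage and genotype are therefore not fully separate where DKO is set against WT. In bulk RNA, fewer cells expressing a gene and less RNA per cell cannot be told apart.

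Asparagine synthetase (*Asns*) moves an amino group from glutamine to aspartate. Proline is made from glutamate by pyrroline-5-carboxylate synthase (*Aldh18a1*) and then by pyrroline-5-carboxylate reductase 1 (*Pycr1*), both mitochondrial. Cystathionine beta-synthase (*Cbs*) joins homocysteine and serine into cystathionine, and cystathionine gamma-lyase (*Cth*) splits cystathionine to release cysteine, which is the route of transsulfuration. *Chac1* encodes a gamma-glutamylcyclotransferase that breaks glutathione down. Several of these genes are known targets of ATF4, a transcription factor whose synthesis rises when amino acids are short or the endoplasmic reticulum is stressed, and which MTORC1 also promotes. ATF4 binds with C/EBP partners to the C/EBP-ATF response element, whereas TFEB and TFE3 bind E-boxes within the CLEAR element of lysosomal genes.

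On GRCm38, *Asns* (ENSMUSG00000029752) lies on the minus strand at chr6:7675169-7693254 and *Aldh18a1* (ENSMUSG00000025007) on the minus strand at chr19:40550257-40588463. *Pycr1* (ENSMUSG00000025140) is on the minus strand at chr11:120635712-120643769, *Cbs* (ENSMUSG00000024039) on the minus strand at chr17:31608894-31637238 and *Cth* (ENSMUSG00000028179) on the minus strand at chr3:157894248-157925077. *Chac1* (ENSMUSG00000027313) is on the plus strand at chr2:119351229-119354381. All 6 are annotated as protein coding. The RefSeq promoter table (GRCm38.p6) held 5 of the 6 genes, all but *Cth*. In the 250 bases before the RefSeq start, the letters TGATGNAA, the core of the C/EBP-ATF response element, were found in *Asns*, *Pycr1* and *Chac1*, where *Chac1* carries them on the opposite strand. The E-box CACGTG was found in *Aldh18a1* and *Cbs*. Stretches around each match are shown because these are the letters that ATF4 and TFEB are known to bind, with the match in capitals, read 5′ to 3′ on the strand of the gene.
Asns, chr6:7693214-7693243 (minus): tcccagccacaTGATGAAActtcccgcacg
Pycr1, chr11:120643808-120643887 (minus): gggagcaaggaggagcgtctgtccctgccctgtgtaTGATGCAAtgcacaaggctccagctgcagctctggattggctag
Chac1, chr2:119351013-119351092 (plus): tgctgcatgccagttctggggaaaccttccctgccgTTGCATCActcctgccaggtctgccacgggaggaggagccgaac
Aldh18a1, chr19:40588480-40588559 (minus): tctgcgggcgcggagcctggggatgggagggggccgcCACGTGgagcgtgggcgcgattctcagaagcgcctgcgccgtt
Cbs, chr17:31637376-31637455 (minus): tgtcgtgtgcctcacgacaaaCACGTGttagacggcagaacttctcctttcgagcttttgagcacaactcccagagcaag

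The match begins 23 bases before the RefSeq start in *Asns*, 103 in *Pycr1*, 193 in *Chac1*, 59 in *Aldh18a1* and 229 in *Cbs*. The match in *Asns* falls within a GENCODE transcript of the gene, which begins further upstream. Searched on both strands over all 32851 promoters of the table, TGATGNAA was in 3.45% of the 250-base windows and CACGTG in 6.02%. The longer core TCACGTGA, which contains CACGTG, was in 0.785% of them and in none of the 5 genes. A match is a description of letters, and binding was not measured.

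Total estimated counts were 24668921 to 33332562 per library (median 27988364). The targeted genes were checked first. *Tfeb* was at 22.9 ± 1.74 CPM (counts scaled to library size; SD, n = 4) in WT and 2.25 ± 0.289 in DKO under DMSO, whereas *Tfe3* was at 120 ± 1.17 and 124 ± 2.11, so its transcripts were not lower in DKO. The fibroblast markers *Col1a1* (754 to 3343 CPM), *Vim* (2066 to 3555 CPM) and *Col1a2* (205.2 to 1330 CPM) were high in all libraries. *Pdgfrb* was at 29.43 to 78.05 CPM, *Col3a1* at 8.992 to 55.62 CPM and *Pdgfra*, which varied widely, at 4.205 to 177.4 CPM. *Thy1* was between 0 and 4.52 CPM, and the macrophage marker *Adgre1* was at 0. Of the 4 macrophage markers, *Ptprc* was at most at 0.195 CPM and *Csf1r* at 0.645 CPM, and *Cd68*, which encodes a protein of lysosomal membranes, was at 1.54 to 14.3 CPM and made up nearly all of their sum. This sum was 1.87 to 2.46 CPM under DMSO, 4.31 to 6.59 CPM under torin1 and 10.7 to 14.6 CPM under MK-8722 in WT. In DKO it was 4.396 to 6.38, 4.92 to 8.77 and 8.29 to 11.7 CPM in the same order, and its part in the values below was not tested. The passage 8 libraries of DKO DMSO and DKO MK-8722 stood apart for several of the 6 genes. That of DKO torin1 lay between the other libraries of its group for *Asns*, *Pycr1* and *Cth*, and was the highest for *Aldh18a1* (67.1 CPM) and *Chac1* (18.2 CPM). Values without all 3 DKO libraries of passage 8, an alternative chosen after the data were seen, are given where a call depends on them.

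CPM was scaled by the trimmed mean of M values (TMM), and the plot of CPM by group gives every library. *Cbs* was close to the detection limit, with 5 to 33 counts per library. The other 5 genes had at least 89 counts in each.

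**Figure D1:**
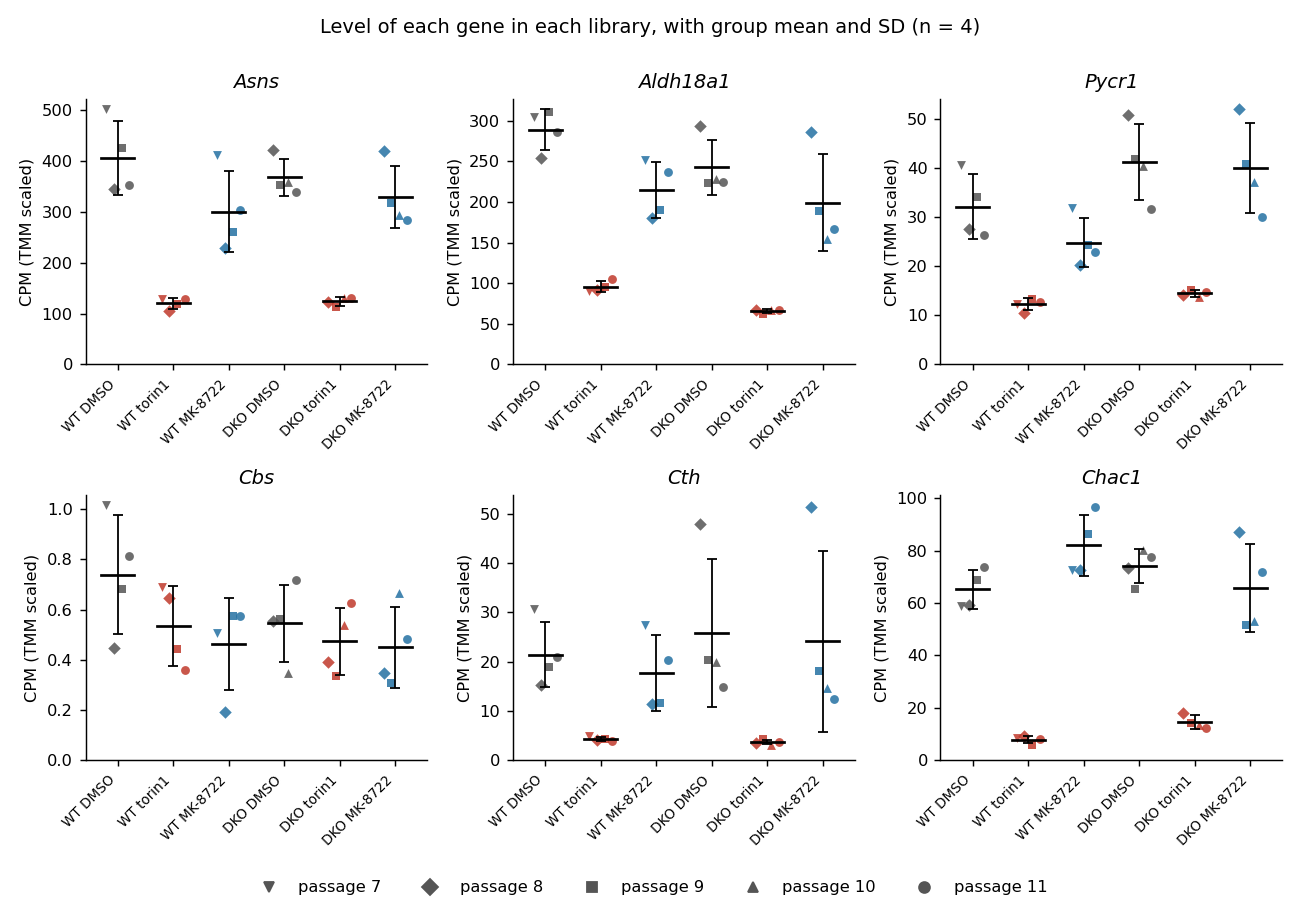
CPM (y axis, TMM scaled, from 0) of each of the 6 genes in each library (x axis, the 6 groups of genotype and drug), where each marker is 1 library with its shape giving the passage, the bar is the mean and the whiskers are the SD of 4 libraries. Torin1 libraries (red) lie below the DMSO libraries (grey) and MK-8722 libraries (blue) of the same genotype for every gene but *Cbs*, and the passage 8 library lies at the top of DKO DMSO and DKO MK-8722 for *Cth*, *Asns*, *Aldh18a1* and *Pycr1*.

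Torin1 lowered transcripts of the enzymes of asparagine, proline and cysteine synthesis and of *Chac1* in both genotypes. Of the 6 genes, 5 fell in WT and the same 5 fell in DKO, with *Cbs* the exception. The largest falls were in *Chac1* (8.27-fold in WT and 5.09-fold in DKO) and *Cth* (4.99-fold and 7.00-fold), and the smallest of the 5 in *Pycr1* (2.62-fold and 2.85-fold). Over all tested genes, 20.5% were called lower in WT, 20.2% in DKO and 15.1% in both, where a call needs a 1.2-fold change or more besides an adjusted p under 0.05.

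*Asns* was at 501, 352, 344 and 425 CPM in the WT DMSO libraries and at 128, 119, 129 and 106 CPM under torin1. In DKO it was at 339, 421, 358 and 352 CPM under DMSO and at 113, 130, 131 and 122 CPM under torin1. The highest torin1 library was below the lowest DMSO library in each genotype. The log2 fold change was −1.76 ± 0.15 (SE, n = 4) in WT (edgeR adjusted p = 1.19e-09) and −1.57 ± 0.15 in DKO (edgeR adjusted p = 7.63e-09).

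*Aldh18a1*, the first step from glutamate to proline, was at 305, 286, 255 and 311 CPM in WT under DMSO and at 106, 95.8, 90.6 and 91.9 CPM under torin1. In DKO it went from 225, 294, 229 and 223 CPM to 61.9, 66.7, 66.9 and 67.1 CPM. No torin1 library reached the DMSO range, and the DKO torin1 libraries were also all below those of WT. The log2 fold change was −1.59 ± 0.15 (SE, n = 4) in WT (edgeR adjusted p = 2.83e-09) and −1.89 ± 0.15 in DKO (edgeR adjusted p = 2.50e-10).

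*Pycr1*, the last step to proline, was less abundant, at 40.6, 26.3, 27.6 and 34.2 CPM in WT under DMSO and at 12.8, 13.4, 12.3 and 10.6 CPM under torin1. In DKO the values were 31.7, 50.8, 40.5 and 42.0 CPM under DMSO and 15.2, 14.8, 13.8 and 14.2 CPM under torin1. The torin1 libraries were again below all DMSO libraries and spread less than these, with an SD of 1.23 CPM against 6.60 in WT and of 0.652 CPM against 7.82 in DKO. The log2 fold change was −1.39 ± 0.17 (SE, n = 4) in WT (edgeR adjusted p = 2.24e-07) and −1.51 ± 0.17 in DKO (edgeR adjusted p = 6.52e-08).

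Of the enzymes of transsulfuration, *Cbs* was between 0.448 and 1.01 CPM in WT under DMSO and between 0.359 and 0.690 CPM under torin1, so the groups overlapped. Its log2 fold change was −0.48 (95% interval −1.14 to 0.17) in WT and −0.21 (95% interval −0.93 to 0.51) in DKO, and neither was called. In this fit a fall of the size seen in the other 5 genes lies outside both intervals. Over the alternatives of processing with no single library left out, *Cbs* ran from −0.51 to −0.27 in WT and from −0.79 to −0.12 in DKO. *Cth* was at 30.6, 20.99, 15.2 and 18.8 CPM in WT under DMSO and at 3.98, 4.32, 4.83 and 4.05 CPM under torin1. In DKO the DMSO libraries were at 14.9, 47.9, 19.97 and 20.3 CPM, of which 47.9 is passage 8, and the torin1 libraries were at 4.22, 3.71, 3.20 and 3.54 CPM. The torin1 libraries of both genotypes lay in a narrow band below every DMSO library. The log2 fold change of *Cth* was −2.32 ± 0.43 (SE, n = 4) in WT (edgeR adjusted p = 6.83e-05) and −2.81 ± 0.45 in DKO (edgeR adjusted p = 1.03e-05).

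*Chac1* was at 59.0, 73.8, 59.2 and 68.9 CPM in WT under DMSO and at 8.00, 5.85, 8.56 and 9.17 CPM under torin1. In DKO it was at 77.7, 73.3, 80.3 and 65.5 CPM under DMSO and at 14.4, 12.3, 13.4 and 18.2 CPM under torin1. The DMSO libraries of the genotypes overlapped, and the torin1 libraries of DKO were all above those of WT. The log2 fold change was −3.05 ± 0.17 (SE, n = 4) in WT (edgeR adjusted p = 9.01e-13) and −2.35 ± 0.16 in DKO (edgeR adjusted p = 3.36e-11).

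For these 5 genes the libraries of torin1 and DMSO did not overlap in either genotype, as was the case, with torin1 lower, for 25.7% of all tested genes in WT and 26.1% in DKO. The difference within each passage therefore had the same sign in 4 of 4 passages for each of the 5 genes in each genotype. This follows from the lack of overlap and is no further result. In size, the falls were near the extreme of the table. Of the 15401 tested genes, 10 had a lower log2 fold change than *Chac1* in WT, 27 had a lower one than *Cth*, 57 than *Asns*, 71 than *Aldh18a1* and 104 than *Pycr1*, against 1801 for *Cbs*. The median over the 6 genes was −1.67 in WT and −1.73 in DKO, beside 0.05 and 0.02 over all tested genes.

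**Figure D2:**
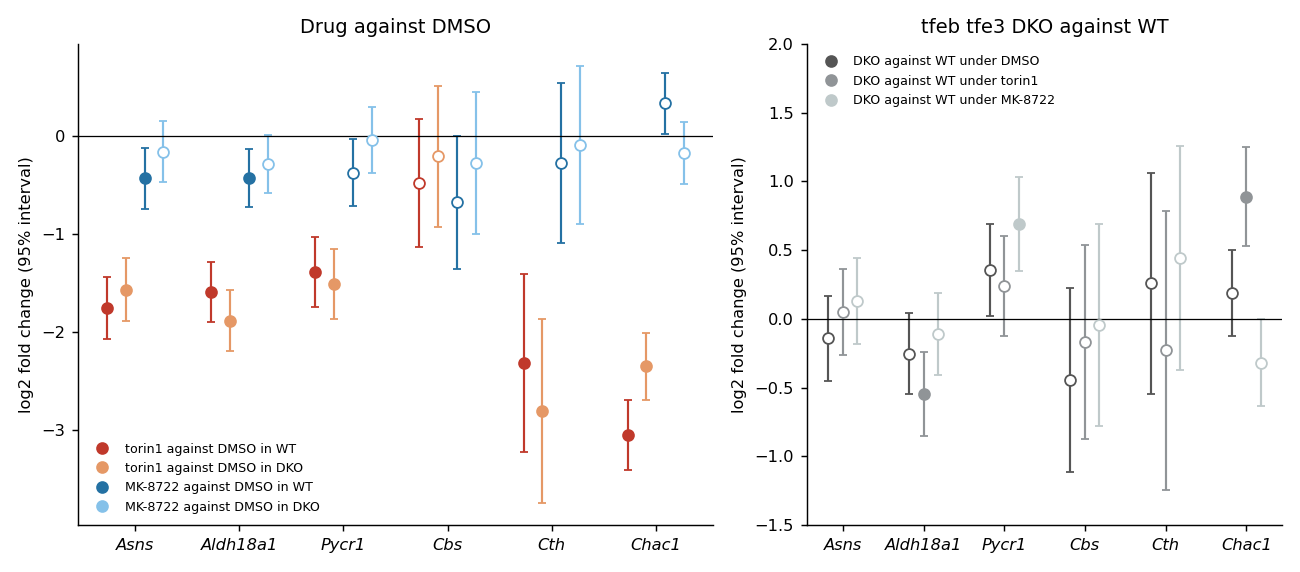
Log2 fold change (y axis) of each of the 6 genes (x axis) for the drugs against DMSO (left) and for *tfeb tfe3* DKO against WT (right), with 95% intervals from the fit of 24 libraries, where filled points were called and open points were not. Torin1 is between −1.39 and −3.05 for all genes but *Cbs*, MK-8722 is between −0.68 and 0.33, and between genotypes *Chac1* and *Aldh18a1* were called under torin1 and *Pycr1* under MK-8722.

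MK-8722 had a smaller effect on these transcripts. In WT, *Asns* and *Aldh18a1* fell, so 2 of the 6 genes were called, beside 16.1% of all tested genes in either direction and 5.87% lower. The libraries of *Aldh18a1* under MK-8722 lay below those of DMSO, as did 14.8% of all tested genes. In DKO, 0 of the 6 were called by edgeR, beside 8.69% of all tested genes, and 0 had an unadjusted p under 0.05. The comparisons of both drugs share the DMSO libraries.

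In WT under MK-8722, *Asns* was at 229, 303, 259 and 410 CPM and *Aldh18a1* at 181, 237, 190 and 252 CPM. The *Asns* libraries overlapped those of DMSO, and the *Aldh18a1* libraries were all below them. The log2 fold change was −0.43 ± 0.15 (SE, n = 4) for *Asns* (edgeR adjusted p = 0.0286) and −0.43 ± 0.14 for *Aldh18a1* (edgeR adjusted p = 0.0248). Both calls were lost without WT DMSO replicate 1 or 4 or WT MK-8722 replicate 1 or 3, with values from −0.32 to −0.41 for *Asns* and from −0.36 to −0.40 for *Aldh18a1*. *Asns* was also not called where only the groups compared were fitted (−0.42, edgeR adjusted p = 0.113).

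*Pycr1* was at 20.2, 22.9, 24.4 and 31.8 CPM in WT under MK-8722, a log2 fold change of −0.38 ± 0.16 (SE, n = 4, edgeR adjusted p = 0.0839). It was called without WT DMSO replicate 2 (−0.46, edgeR adjusted p = 0.0433), without WT MK-8722 replicate 4 (−0.53, edgeR adjusted p = 0.0182), and without the DKO libraries of passage 8 (−0.38, edgeR adjusted p = 0.0496). *Cth* was at 11.4, 20.4, 11.6 and 27.5 CPM (−0.28, 95% interval −1.09 to 0.54), and *Cbs* was between 0.191 and 0.576 CPM (−0.68, 95% interval −1.35 to 0.00). *Chac1* was the 1 gene of the 6 above DMSO, at 72.6, 96.6, 86.4 and 72.5 CPM, with a log2 fold change of 0.33 ± 0.15 (edgeR adjusted p = 0.0989, and 0.0400 where only the groups compared were fitted). The lowest of these libraries was below the highest DMSO library.

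The passage moved with the levels. In WT, *Asns*, *Pycr1* and *Cth* were highest at passage 7 under DMSO and under MK-8722. Set against the DMSO library of the same passage, *Asns* was lower under MK-8722 in 4 of 4 WT passages (−0.71 to −0.22). So were *Aldh18a1* (−0.71 to −0.27), *Pycr1* (−0.49 to −0.20), *Cth* (−0.69 to −0.04) and *Cbs* (−0.99 to −0.22). *Chac1* was higher in 4 of 4 (0.29 to 0.39). The share of all tested genes with 4 of 4 passages in 1 direction was not counted. With passage within genotype as a block, 4 of the 6 genes were called in WT, with *Pycr1* at −0.37 (edgeR adjusted p = 0.00243) and *Chac1* at 0.33 (edgeR adjusted p = 0.0133) beside *Asns* and *Aldh18a1*. Deviations from the group means were compared between libraries of the same passage and genotype. Their r was 0.02 to 0.66, and over 0.1 in 17 of 24 pairs. The fit without the block, given first, leaves this pairing out.

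In DKO under MK-8722, *Asns* was at 318, 284, 294 and 419 CPM, *Aldh18a1* at 189, 167, 155 and 286 CPM and *Pycr1* at 40.8, 30.1, 37.1 and 52.0 CPM. *Cth* was at 18.1, 12.4, 14.6 and 51.3 CPM and *Chac1* at 51.6, 71.7, 53.2 and 86.9 CPM. Replicate 3 of this group (155 CPM for *Aldh18a1*) had an RNA integrity number of 7.9, the lowest of the 24 libraries, where the highest was 9.9. In all 5 genes the last value, passage 8, was the highest. *Atf4* itself was at 498 CPM in that library and at 315 to 343 CPM in the other 3, and its part in the values was not tested.

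The log2 fold changes in DKO lay between −0.29 for *Aldh18a1* (95% interval −0.58 to 0.01) and −0.04 for *Pycr1* (95% interval −0.38 to 0.29). *Chac1* was at −0.17 (95% interval −0.49 to 0.14), below DMSO in 3 of 4 passages and above it in passage 8. Without the 3 DKO libraries of passage 8, *Aldh18a1* was called lower (−0.41, edgeR adjusted p = 0.00985), as it was with the passage block (−0.31, edgeR adjusted p = 0.0148).

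**Figure D3:**
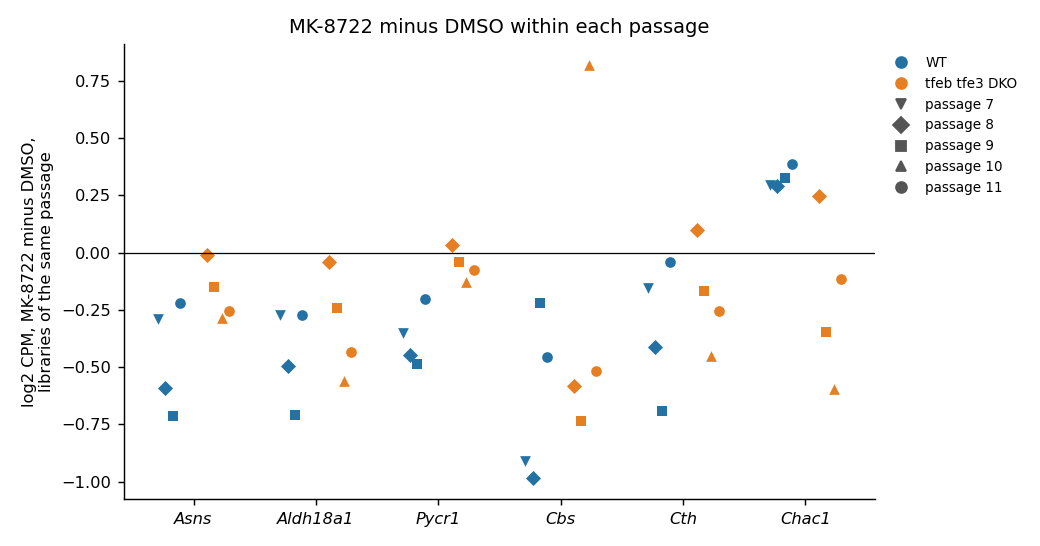
Difference of log2 CPM between the MK-8722 and the DMSO library of the same genotype and passage (y axis) for each of the 6 genes (x axis), where each marker is 1 passage, blue for WT and orange for *tfeb tfe3* DKO. *Chac1* is above 0 in all 4 WT passages and in 1 of 4 DKO passages, passage 8, whereas *Asns* and *Aldh18a1* are below 0 in all passages of both genotypes.

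The drugs were also set against each other, at their different doses. Under torin1, 5 of the 6 genes were lower than under MK-8722 in WT and the same 5 in DKO, and *Cbs* was not called. Of all tested genes, 20% were called lower in WT and 19.3% in DKO. The log2 difference ran from −1.01 ± 0.17 (SE, n = 4) for *Pycr1* to −3.38 ± 0.17 for *Chac1* in WT, and from −1.40 ± 0.15 for *Asns* to −2.71 ± 0.45 for *Cth* in DKO.

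The 6 genes had no common direction between *tfeb tfe3* DKO and WT MEFs. Under DMSO 0 of the 6 differed between DKO and WT by edgeR, beside 48.2% of all tested genes, and 1 of them, *Pycr1*, had an unadjusted p under 0.05. Under torin1, 2 of the 6 were called, beside 51.8%, with *Chac1* higher and *Aldh18a1* lower in DKO, each with no overlap of libraries, beside 28.6% of all tested genes that lay above WT and 31.7% below it in this way. Under MK-8722, 1 of the 6 was called, beside 48.7%, with *Pycr1* higher in DKO. Which gene was called differed with the drug, but a call under 1 drug alone is not a test of a difference between drugs. The difference in response was not called for *Aldh18a1* under torin1 (−0.30, edgeR adjusted p = 0.378). It was also not called for *Pycr1* under MK-8722 (0.33, edgeR adjusted p = 0.516).

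*Asns* was close to WT under every treatment, at −0.14 (95% interval −0.45 to 0.17) under DMSO, 0.05 (95% interval −0.27 to 0.36) under torin1 and 0.13 (95% interval −0.18 to 0.44) under MK-8722. *Aldh18a1* was lower in DKO by 0.55 ± 0.14 on the log2 scale under torin1 (−0.55, SE, n = 4, edgeR adjusted p = 0.00196), with no overlap of libraries. Under DMSO it was at −0.25 (95% interval −0.55 to 0.05) and under MK-8722 at −0.11 (95% interval −0.41 to 0.19). Without the DKO libraries of passage 8 these were −0.36 (edgeR adjusted p = 0.00422) and −0.34 (edgeR adjusted p = 0.00630), and *Aldh18a1* was then called lower under all 3 treatments.

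*Pycr1* was on the higher side in DKO, at 0.36 ± 0.16 (SE, n = 4, edgeR adjusted p = 0.0573) under DMSO, 0.24 ± 0.17 (edgeR adjusted p = 0.237) under torin1 and 0.69 ± 0.16 (edgeR adjusted p = 0.000768) under MK-8722. Under DMSO it was called without WT DMSO replicate 1 (0.49, edgeR adjusted p = 0.0135), DKO DMSO replicate 1 (0.46), or DKO MK-8722 replicate 2 (0.35) or 4 (0.36). It was also called there with no filter (0.37), with DESeq2 (0.35), with the length offset (0.41) and with passage as an additive block (0.47, edgeR adjusted p = 0.00600). Under torin1 its DKO libraries were nonetheless all above those of WT, and under MK-8722 they overlapped. *Cth* was at 0.26, −0.23 and 0.44 in the same order, with 95% intervals of −0.55 to 1.06, −1.25 to 0.78 and −0.37 to 1.26. Without passage 8 *Cth* was at −0.22 under DMSO and −0.23 under MK-8722.

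*Chac1* was higher in DKO under torin1 by 0.89 ± 0.17 on the log2 scale (SE, n = 4, edgeR adjusted p = 8.97e-05), 14.6 ± 2.58 against 7.89 ± 1.45 CPM (SD). It was at 0.19 ± 0.15 under DMSO (edgeR adjusted p = 0.291) and at −0.32 ± 0.15 under MK-8722 (edgeR adjusted p = 0.0685). The last was called without WT MK-8722 replicate 1 or 4 (both −0.38), without DKO MK-8722 replicate 4 (−0.48, edgeR adjusted p = 0.00657), and without all 3 passage 8 libraries of DKO (−0.48, edgeR adjusted p = 0.00539). Hence the response to torin1 was smaller in DKO by 0.70 ± 0.23 on the log2 scale (edgeR adjusted p = 0.0395), the 1 call of the 6 genes beside 11% of all tested genes. This call was lost without any 1 of 7 libraries, which are WT DMSO replicates 2 and 4, WT torin1 replicate 2, DKO DMSO replicates 2 and 4 and DKO torin1 replicates 1 and 4, with values from 0.58 to 0.72. It was also lost with library size alone as the scaling (0.64, edgeR adjusted p = 0.0513), with limma voom (0.71, adjusted p = 0.0975) and without the DKO libraries of passage 8 (0.58, edgeR adjusted p = 0.0751).

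The response to MK-8722 differed between genotypes for 0 of the 6 genes by edgeR, beside 5.49% of all tested genes, and *Chac1* was the 1 gene with an unadjusted p under 0.05. Its response was lower in DKO by 0.50 ± 0.21 on the log2 scale (−0.50, SE, n = 4, edgeR adjusted p = 0.194). It was called with the passage block (−0.53, edgeR adjusted p = 0.0169), without DKO MK-8722 replicate 4, which is passage 8 (−0.67, edgeR adjusted p = 0.0395), and without all 3 passage 8 libraries (−0.67, edgeR adjusted p = 0.0432).

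Per unit of transcript length, in TPM, *Asns* was the most abundant of the 6 genes in WT under DMSO at 370 ± 69.6 TPM (SD, n = 4), followed by *Aldh18a1* at 158 ± 14.2 TPM and *Chac1* at 65.2 ± 7.33 TPM. *Pycr1* (34.0 ± 5.73 TPM) and *Cth* (21.6 ± 6.45 TPM) overlapped, and *Cbs* was at 0.533 ± 0.234 TPM. Under torin1 in WT *Chac1*, at 8.38 ± 1.54 TPM, was below *Pycr1* at 14.8 ± 1.05 TPM, with no overlap of libraries. In DKO under torin1 the pair overlapped, at 14.8 ± 2.65 TPM for *Chac1* and 15.7 ± 1.12 TPM for *Pycr1*. *Cth* was next at 4.60 ± 0.486 TPM in WT and 3.46 ± 0.387 TPM in DKO.

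One transcript carried most of the level of *Asns* (59.2% to 70.5% of the gene's TPM over the 24 libraries), *Pycr1* (62.1% to 79.8%) and *Cth* (69.9% to 100%). *Aldh18a1* was shared between a pair of transcripts, at 34.5% to 45.4% and 29.5% to 38.2%. *Chac1* has 1 transcript in the annotation. The leading transcript of *Asns* had group means between 62.8% and 66.7%, so the fall of *Asns* under torin1 was not confined to 1 of its transcripts. For *Cbs* the leading transcript went from 0% to 100% over libraries, with few reads behind each share.

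The enzymes around the 6 genes did not all follow them. Of all tested genes, torin1 raised 26.6% in WT and 23% in DKO, and MK-8722 raised 10.3% in WT and 5.47% in DKO and lowered 3.21% in DKO. In a list of 10 tested genes of asparagine and aspartate metabolism, torin1 raised 2 and lowered 4 in WT and raised 4 and lowered 4 in DKO, with medians of 0.05 and −0.24. *Nars*, which charges the tRNA of asparagine, fell by 1.24 in WT and 1.30 in DKO on the log2 scale. *Got1*, the cytosolic aspartate aminotransferase, fell by 0.71 and 0.81. *Asrgl1*, an asparaginase, was at 0.26 and −0.36 and was not called in either. *Asnsd1*, a relative of *Asns* by its synthetase domain, rose by 0.63 in WT and 0.58 in DKO. Under MK-8722, 0 of the 10 rose and 0 fell in WT, and 0 rose and 1 fell in DKO.

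For proline and ornithine, 2 of 8 tested genes rose and 5 fell in WT (median −0.33), and 1 rose and 5 fell in DKO (median −0.64). *Prodh*, proline dehydrogenase, which begins the breakdown of proline, went from 3.15 ± 1.02 to 7.34 ± 1.71 CPM in WT (SD, n = 4) and from 1.25 ± 0.228 to 3.59 ± 0.453 CPM in DKO. It was the gene of this list that moved most, by 1.22 in WT and 1.53 in DKO on the log2 scale, against the direction of *Aldh18a1* and *Pycr1*. *Aldh4a1*, a later enzyme of the same breakdown, was at −0.07 in WT, which was not called, and fell by 0.95 in DKO (difference −0.88, edgeR adjusted p = 0.000131). *Pycrl*, a reductase of proline synthesis, was at −0.32 in WT, which was called, and −0.15 in DKO, which was not, and the difference was not called (0.16, edgeR adjusted p = 0.102). *Pepd*, which frees proline from dipeptides, rose by 0.69 in WT and was at −0.19 in DKO (difference −0.87, edgeR adjusted p = 1.99e-09). The prolyl hydroxylase subunits *P4ha1* and *P4ha2* fell by 0.88 and 0.85 in WT and by 1.04 and 1.10 in DKO. Under MK-8722, 1 of the 8 rose and 1 fell in WT, and 0 rose and 0 fell in DKO.

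Among 14 tested genes of methionine, transsulfuration and cysteine, torin1 raised 3 and lowered 4 in WT (median −0.09) and raised 3 and lowered 6 in DKO (median −0.19). *Slc7a11*, which brings cystine into the cell, went from 20.3 ± 4.62 to 0.628 ± 0.336 CPM in WT (SD, n = 4) and from 21.2 ± 6.28 to 0.844 ± 0.244 CPM in DKO, log2 fold changes of −5.00 ± 0.48 (SE) and −4.64 ± 0.46. Hence both the import of cystine and the last step of transsulfuration had lower transcripts. *Mat2a*, which makes S-adenosylmethionine, fell by 1.09 and 1.21. *Cdo1*, which oxidises cysteine, was at 0.32 in WT, which was not called, and rose by 0.99 in DKO, from 5 to 9 counts per library to 8 to 20, and the difference was not called (0.67, edgeR adjusted p = 0.376). *Slc7a11* also fell under MK-8722 in WT by 0.97 (edgeR adjusted p = 0.0342), where 2 of the 14 rose and 2 fell. In DKO 0 rose and 2 fell.

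In the glutathione list of 11 tested genes, torin1 raised 3 and lowered 5 in WT (median −0.26) and raised 2 and lowered 4 in DKO (median −0.13). *Chac2*, the paralogue of *Chac1*, fell by 0.54 in WT and 0.37 in DKO, and *Gclc*, the catalytic subunit of glutathione synthesis, fell by 0.67 and 0.77. *Gclm*, its modifier subunit, fell by 0.28 and 0.30, whereas *Gss*, the second enzyme of synthesis, was at −0.26 and −0.18 and was not called for its size. *Oplah*, which turns 5-oxoproline into glutamate, rose by 0.67 and 0.54, *Ggt7*, of the gamma-glutamyltransferase family, by 0.78 and 0.41, and *Anpep*, an aminopeptidase, by 0.58 in WT, with 0.18 in DKO not called (difference −0.41, edgeR adjusted p = 0.202). *Gsr*, glutathione reductase, fell by 0.47 in WT and was at −0.13 in DKO, where the difference was called (0.34, edgeR adjusted p = 7.39e-05). Under MK-8722 *Chac2* rose by 0.51 in WT (edgeR adjusted p = 0.00340) and by 0.53 in DKO (edgeR adjusted p = 0.00404). Of the 11 genes, MK-8722 raised 2 and lowered 1 in WT and raised 1 and lowered 2 in DKO.

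*Atf4* fell under torin1 in both genotypes, and its partners in part. Of 13 tested genes for ATF4, its partners, the kinases of eIF2 and a phosphatase subunit, 1 rose and 7 fell in WT under torin1 (median −0.29), and 0 rose and 6 fell in DKO (median −0.25). *Atf4* was at 513 ± 29.8 CPM (SD, n = 4) under DMSO and 189 ± 9.97 CPM under torin1 in WT, and at 431 ± 30.6 and 153 ± 7.06 CPM in DKO, log2 fold changes of −1.44 ± 0.10 (SE) and −1.49 ± 0.10. *Trib3*, a pseudokinase that ATF4 induces, fell by 3.94 and 4.12, and *Atf5* by 1.99 and 2.09. For 2 stress factors the response to torin1 differed between genotypes. *Atf3* fell by 2.01 in WT and 0.68 in DKO (difference 1.34, edgeR adjusted p = 0.00461), and *Ddit3*, which encodes CHOP, was at 0.36 in WT and −0.88 in DKO (difference −1.25, edgeR adjusted p = 0.00407). Under MK-8722 *Ddit3* rose by 1.22 in WT, from 14.6 ± 2.19 to 34.1 ± 9.06 CPM, and was at 0.08 in DKO (difference −1.14, edgeR adjusted p = 0.0118). In all, MK-8722 raised 4 of the 13 and lowered 0 in WT, against the direction of *Asns* and *Aldh18a1*, and raised 0 and lowered 1 in DKO. The others that rose in WT were *Ppp1r15a*, the phosphatase subunit (0.56), *Eif2ak3*, the kinase PERK (0.34), and *Cebpb* (0.28). The remaining 9 were not called in WT, and the median of the 13 was 0.07. *Atf4* itself was not called under MK-8722, at −0.06 in WT and −0.22 in DKO. The difference in response between genotypes was also called for *Ppp1r15a* (−0.55, edgeR adjusted p = 0.00730) and *Cebpb* (−0.48, edgeR adjusted p = 0.00888).

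Of 29 other tested genes known as ATF4 targets, 29 fell in WT and 28 in DKO under torin1, and 0 rose. The exception in DKO was *Slc7a3*, an arginine transporter, at −0.21, whose response differed from WT (difference 1.85, edgeR adjusted p = 0.0250). The difference in response was called the other way for *Herpud1* (−0.82, edgeR adjusted p = 0.00258), *Sesn2* (−0.67, edgeR adjusted p = 0.00231) and *Ddit4* (−0.58, edgeR adjusted p = 0.0490), which fell more in DKO. The median was −1.58 in WT and −1.40 in DKO, beside 0.05 and 0.02 over all tested genes. *Slc6a9*, a glycine transporter, fell by 2.92 in WT and 2.80 in DKO, *Mthfd2*, of mitochondrial folate metabolism, by 2.59 and 2.47, and *Ddit4*, an inhibitor of MTORC1, by 2.91 and 3.48. *Fgf21* had 0 counts in every torin1 library against 10 to 16 in WT and 4 to 14 in DKO under DMSO, at least 17.3-fold lower in WT and 11.3-fold lower in DKO against a floor of 3 counts over the group. It passed the filter on low counts only through the other groups, and without it 28 of 28 fell in WT (median −1.46) and 27 of 28 in DKO (median −1.36). Under MK-8722, 7 of the 29 fell and 0 rose in WT, and 3 fell and 0 rose in DKO. The list shares *Nars* with the asparagine list.

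**Figure D4:**
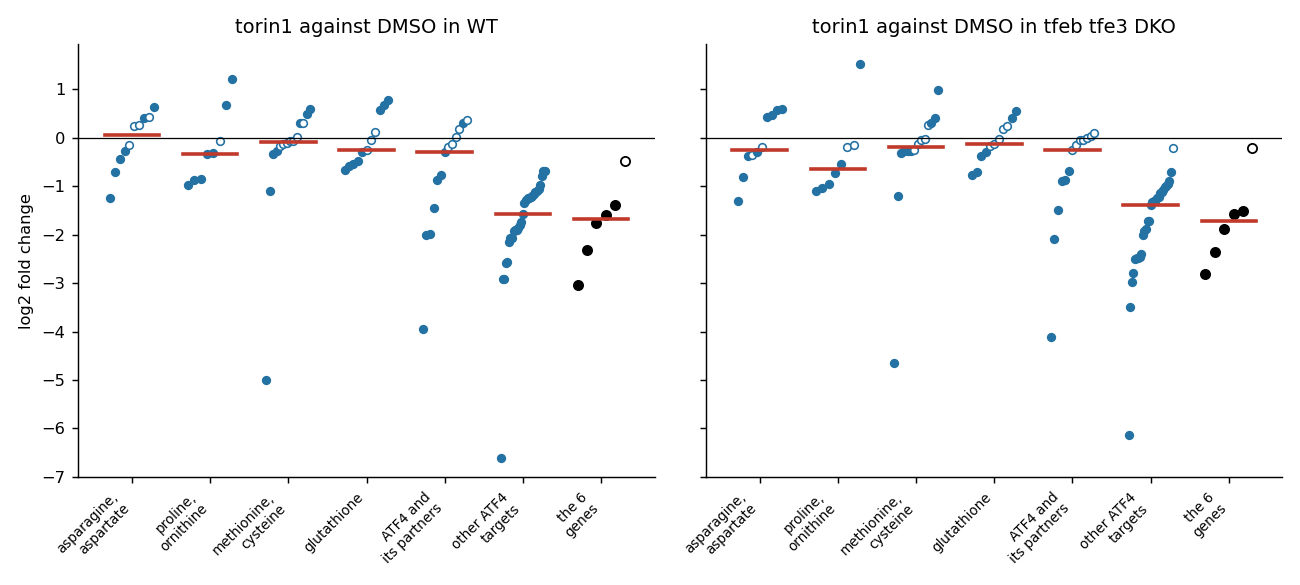
Log2 fold change under torin1 against DMSO (y axis) in WT (left) and *tfeb tfe3* DKO (right) for the genes of each list (x axis, 1 point per tested gene in order of its value) and for the 6 genes (black), where filled points were called, open points were not and red bars are medians. The other ATF4 targets (median −1.58 and −1.40) and the 6 genes (median −1.67 and −1.73) lie mostly below 0, whereas the lists of neighbouring enzymes spread to both sides of 0. The lowest point, *Fgf21*, is a fitted value from 0 counts in every torin1 library and depends on the prior count.

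Over the 24 libraries, log2 CPM of *Asns* was most like that of *Psat1*, *Gars* and *Slc7a11* (Pearson r 0.99 each), among 10665 genes compared. *Aldh18a1* was most like *Yars* (0.98), *Aars* (0.98) and *Bcat1* (0.98), and *Pycr1* was most like *Atf5*, *Phgdh* and *Psph* (0.97 to 0.98). *Cth* was most like *Phf10*, *Wars* and *Xpot* (0.98 each), and *Chac1* was most like *Tmem97* (0.99), *Siah2* (0.98) and *Usp39* (0.98). For *Cbs* no gene was above 0.59, at 5 to 33 counts a library. All these values rest on the same libraries, in which torin1 sets the widest differences, and are descriptions. Among the 6 genes themselves, r was 0.85 to 0.96 between any pair without *Cbs*.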

How the data were processed

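RNA from 24 MEF cultures, 4 per group, was sequenced, and per the labels and methods the authors trimmed the reads, aligned them to GRCm38 with STAR and quantified them with Salmon, taking molecular identifiers into account. The deposited table holds estimated counts per gene, which were rounded to whole numbers here. The deposited per-transcript files hold TPM, which was summed per gene and used only to compare levels between genes. The authors' methods describe a batch removal with limma, whereas the labels give 1 batch, and none was removed here.

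Genes were kept by filterByExpr with a minimum count of 10, scaled by TMM and fitted with edgeR 4.0.16 (R 4.3.3) quasi-likelihood tests over all 24 libraries with 1 mean per group. The p-values were adjusted by Benjamini-Hochberg over 15401 genes, and calls needed an adjusted p under 0.05 together with a 1.2-fold change or more. A prior count of 2 was used for log2 CPM. Alternatives covered the scaling, the filter, DESeq2 1.42.0, limma 3.58.1 voom, the form of the quasi-likelihood test, the fold threshold, an offset for transcript length, blocks for replicate number and passage, the groups fitted and each library left out.

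The 6 genes are named throughout with the genes of each list that the results turn on, and up to 3 genes most like each of the 6 by Pearson r. Members and lists were chosen with earlier results of these data known. Same-numbered libraries did not deviate together (r over 0.1 in 13 of 60 pairs, from −0.41 to 0.66), so numbers do not pair them. For same-passage libraries within a genotype r was over 0.1 in 17 of 24 pairs. Total counts limit precision mainly for *Cbs*, and intervals cover the spread between cultures as fitted.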

Additional observations from a re-analysis of the deposited data

Results flagged for a closer look

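In 4 of the 36 sets of 4 libraries examined (6 genes in 6 groups), 1 library lay apart from the other 3. Its gap to the nearest took more of the range than Dixon's 95% critical value, which chance gives in about 1 in 20 sets. *Aldh18a1* was at 294 CPM in DKO DMSO replicate 2 and *Cth* at 47.9 CPM in the same library, which is passage 8. *Cth* was at 51.3 CPM in DKO MK-8722 replicate 4, which is also passage 8. *Aldh18a1* was at 61.9 CPM in DKO torin1 replicate 1, below the other 3, which lay close together at 66.7 to 67.1 CPM, so this gap was small in size. The response of *Chac1* to torin1 differed between DKO and WT by 0.70 on the log2 scale, by the test of the difference itself.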

How the results depend on the processing

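The falls of *Asns*, *Aldh18a1*, *Pycr1*, *Cth* and *Chac1* under torin1, against DMSO and against MK-8722 in both genotypes, kept their direction and call in all 740 values (20 results in 37 settings each), with adjusted p up to 0.00425. Numbers of genes called out of 6 moved as follows, and the cause was not tested. With passage within genotype as a block, MK-8722 in WT went from 2 to 4, MK-8722 in DKO from 0 to 1 and the difference in response to MK-8722 from 0 to 1. DKO against WT under DMSO went from 0 to 1 with library size alone, no filter, DESeq2, a transcript length offset, passage as an additive block, only the groups compared, or no DKO passage 8. DKO against WT under MK-8722 went from 1 to 2 with library size alone, at least 10 counts in every library or voom. The difference in response to torin1 went from 1 to 0 with library size alone, voom or no DKO passage 8. Without the DKO libraries of passage 8, chosen after seeing the data, DKO against WT under MK-8722 gave 3, and MK-8722 in DKO and the difference in response to MK-8722 gave 1 each. For MK-8722 in WT, *Pycr1* was then called besides *Asns* and *Aldh18a1*. Leaving out 1 library gave 0 to 3 for MK-8722 in WT, 0 to 1 for MK-8722 in DKO, for DKO against WT under DMSO and for both differences in response, and 1 to 3 for DKO against WT under MK-8722. The replicate numbers did not pair the libraries, and the replicate block left the counts at 5 of 6 for torin1 and 2 of 6 for MK-8722 in WT, and changed no other count.

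Only results that were not called changed sign. With the length offset *Cbs* was at 0.31 for DKO against WT under DMSO, 0.18 under MK-8722, −0.52 and −0.13 for the differences in response to torin1 and MK-8722, and −0.22 for torin1 against MK-8722 in DKO. For DKO against WT under MK-8722 *Cbs* was at 0.0028 with voom, 0.041 with the additive passage block and 0.058 without DKO passage 8. With library size alone *Asns* was at −0.080 for DKO against WT under torin1, and with the additive passage block *Cth* was at 0.064. Without DKO passage 8, DKO against WT was −0.22 for *Cth* under DMSO, and −0.23 for *Cth* and −0.0057 for *Asns* under MK-8722. The differences in response without it were 0.015 for *Pycr1* and 0.021 for *Cth* (torin1) and −0.0096 for *Cth* (MK-8722). With 1 library left out, MK-8722 in DKO ran from −0.19 to 0.072 for *Pycr1* and −0.77 to 0.39 for *Cth*. DKO against WT ran from −0.23 to 0.48 for *Cth* under DMSO, −0.0020 to 0.0998 for *Asns* under torin1, and under MK-8722 from −0.0064 to 0.31 for *Asns*, −0.30 to 0.10 for *Cbs* and −0.23 to 0.73 for *Cth*. The difference in response to MK-8722 ran from −0.084 to 0.25 for *Aldh18a1* and −0.49 to 0.67 for *Cth*, and torin1 against MK-8722 for *Cbs* from −0.059 to 0.32 in WT and −0.083 to 0.33 in DKO. Depth limits *Cbs*, with 5 to 33 counts per library.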
